A study of Mus musculus with 12 samples.

Results

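Alpha-fetoprotein (Afp) transcript was read clearly on some arrays of this series of embryonic mouse hearts and near background on the others, and the genes that separate those hearts are described here. The hearts were chosen by their Afp value: the 6 of 12 arrays on which the Afp probe ILMN_1245472 lay above 8 on the log2 scale were set against the 6 arrays at or below 8. Just above the threshold lay 10.49, in Ddc PATΔ replicate 2, and just below it 6.23, in Ddc WT replicate 2, so no heart lay close to 8. Afp itself read 5.65, 6.23 and 6.02 in the Ddc WT hearts, 5.42, 4.90, 10.77 and 10.51 in Ddc MATΔ replicates 1 to 4, 11.36, 10.49, 4.88 and 11.04 in Ddc PATΔ replicates 1 to 4, and 12.62 in the Ddc ΔΔ heart. These values made the groups and are no finding, and Afp is left out of everything that follows.

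All hearts were dissected at E15.5 and read on 1 array each. There were 3 of genotype Ddc WT, 4 each of Ddc MATΔ and of Ddc PATΔ, and a single one of Ddc ΔΔ. The deletion of Ddc_exon1a was inherited from the mother in Ddc MATΔ, from the father in Ddc PATΔ and from both parents in Ddc ΔΔ embryos, and the paternal allele is the one used in heart. The allele is a gene trap carried on a mixed inbred background, and the Ddc ΔΔ group is 1 embryo, which gives no spread. The hearts with Afp signal were 2 Ddc MATΔ, 3 Ddc PATΔ and the Ddc ΔΔ heart, and those without were the 3 Ddc WT, 2 Ddc MATΔ and 1 Ddc PATΔ heart.

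Afp is the main plasma protein of the fetus. It is made by the yolk sac endoderm and by the hepatocytes of the fetal liver, which also begin to secrete apolipoproteins, protease inhibitors and clotting factors before birth. At this stage of gestation the fetal liver is also the chief site of blood formation, where red cell precursors, granulocytes and their progenitors lie between the hepatocytes. The heart at the same age consists of cardiomyocytes, endocardium, epicardium, fibroblasts and smooth muscle, and it is filled with blood. In whole hearts, more cells of a type and more RNA per cell cannot be told apart.

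Values are the log2 signals of 45267 probes as the authors had normalized them, and a difference of 1 is a factor of 2 in signal. Array medians lay at 5.61 to 5.62, the lowest value was 4.58 and the highest 15.59. Values below about 6 lie near the lowest readings and give little more than an upper limit. Each difference below is that between hearts with and without Afp signal within a genotype, from limma with genotype as a factor. It is therefore set by the Ddc MATΔ hearts (2 with, 2 without) and the Ddc PATΔ hearts (3 with, 1 without), while the Ddc WT and Ddc ΔΔ hearts, which fell wholly into 1 group, do not enter it. The p-values, adjusted by Benjamini-Hochberg over all probes, describe this difference between the 2 groups within genotypes, and not how a probe followed the Afp level over all 12 hearts. Since a readout made the groups, they are no independent evidence. Ranges and statements on overlap use all 12 hearts.

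The labels were borne out by the targeted gene: Ddc (ILMN_1260450) lay at 13.42 to 14.12 where the paternal allele was intact (Ddc WT, Ddc MATΔ) and at 9.12 to 10.44 where it was deleted (Ddc PATΔ, Ddc ΔΔ), and its difference with Afp signal was 0.27. The cardiac label held too, since Nppa, the gene of the atrial natriuretic peptide, lay between 15.28 and 15.47 on every array. The first principal component of the probes with a mean of 7 or more, hepatic lists left out, held 26.7% of their variance and ran partly with the split. It was negative in Ddc WT replicate 1 (-28.6) and in 5 hearts with Afp signal (-21.4 to -1.74), and positive in the 5 other hearts without signal (6.57 to 25.6) and in Ddc PATΔ replicate 4 (19.1). Ddc PATΔ replicate 2 stood apart in genes of fast skeletal muscle, with Mylpf, a fast myosin light chain, at 10.92 against 8.29 to 9.65 elsewhere. Xist, a transcript of female cells, read 5.99 in Ddc MATΔ replicate 3, 4.75 and 5.13 in Ddc PATΔ replicates 1 and 3, and 12.57 to 13.52 in the other hearts. The single Ddc PATΔ heart without signal, replicate 3, was thus low in Xist, while replicates 2 and 4 with signal were high. The arrays were made as 2 slides, but the sources used here do not tie the hearts to them, so slide and Afp signal cannot be told apart.

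Of 45266 probes, 28 were called higher with Afp signal at an adjusted p of 0.05 (0.0619%) and 0 lower (0%) by limma, while 2345 probes were higher and 2325 lower at an unadjusted p of 0.05. The median difference of all probes was -0.0036. The 28 probes belong to 24 named genes and 1 probe without a name, and 18 of the genes are in the hepatic lists. Counted by the probe with the highest mean for each gene, 17 of 19055 genes were called higher (0.0892%), of which 13 were in the 5 lists of plasma proteins. The remaining 4 were Foxa3, from another hepatic list, and Spink1, Crp and Prrt4, which were in no list. The count of 28 fell to 7 without Ddc PATΔ replicate 3, to 15 without Ddc MATΔ replicate 3 and to 16 without Ddc MATΔ replicate 2, and the count of lower probes went from 0 to 7 without Ddc WT replicate 1. Ambp, Fga, Spink1, Apoh and Apof kept their calls in the absence of Ddc PATΔ replicate 3, whereas the adjusted p for the difference of Apoa1 became 0.0646, as for Serpina1b and Prrt4, with 0.118 for Itih2, 0.218 for Kng1 and 0.263 for Foxa3, and Apoa2, Itih4, Serpina1d and Hgfac also lost theirs. Of the 15 called genes followed through the alternatives, Ambp was the 1 that kept its call with 100 added to every linear signal, which shrinks differences that start near background (3.45, adjusted p = 0.0220).

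The promoters of 5 called plasma protein genes are shown, since the hepatic genes below moved together and many are known targets of the liver-enriched factors HNF1, FOXA, HNF4 and C/EBP. The first 4 were picked because they hold a match to the letters searched for these motifs. Apoh, among the genes of smallest adjusted p, is shown as a window without a match to those letters. Other spellings of the motifs were not searched, so this window is not shown to lack sites of these factors. Each sequence runs from 250 bases before to 50 bases after the annotated start, 5′ to 3′ on the strand of the gene, from the RefSeq annotation of build GRCm38.p6. Capitals mark matches, on either strand, to the HNF1 half-site (GTTAAT), the FOXA motif (TGTTTGC) or the C/EBP motif (TTGNGCAA). The windows are chr3:83025903-83026202 (plus strand) for Fga, chr9:46228380-46228679 (plus) for Apoa1, chr12:103738140-103738439 (minus) for Serpina1b, chr4:63154123-63154422 (minus) for Ambp and chr11:108395047-108395346 (plus) for Apoh.
Fga: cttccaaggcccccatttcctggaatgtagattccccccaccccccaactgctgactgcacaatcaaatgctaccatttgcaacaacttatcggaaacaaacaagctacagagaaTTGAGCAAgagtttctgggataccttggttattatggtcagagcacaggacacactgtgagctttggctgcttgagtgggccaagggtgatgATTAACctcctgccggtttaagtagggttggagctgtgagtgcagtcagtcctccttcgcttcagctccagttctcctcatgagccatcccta
Apoa1: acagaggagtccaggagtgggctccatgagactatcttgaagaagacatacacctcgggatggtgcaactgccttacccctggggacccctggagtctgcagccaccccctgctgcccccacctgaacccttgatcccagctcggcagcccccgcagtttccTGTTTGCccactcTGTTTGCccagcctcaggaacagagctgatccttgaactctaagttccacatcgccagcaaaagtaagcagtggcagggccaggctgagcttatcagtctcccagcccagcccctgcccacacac
Serpina1b: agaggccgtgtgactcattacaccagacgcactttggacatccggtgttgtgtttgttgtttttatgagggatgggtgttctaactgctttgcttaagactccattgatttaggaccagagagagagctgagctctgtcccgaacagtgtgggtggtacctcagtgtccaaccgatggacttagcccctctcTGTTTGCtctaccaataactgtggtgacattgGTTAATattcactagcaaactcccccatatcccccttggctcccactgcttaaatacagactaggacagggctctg
Ambp: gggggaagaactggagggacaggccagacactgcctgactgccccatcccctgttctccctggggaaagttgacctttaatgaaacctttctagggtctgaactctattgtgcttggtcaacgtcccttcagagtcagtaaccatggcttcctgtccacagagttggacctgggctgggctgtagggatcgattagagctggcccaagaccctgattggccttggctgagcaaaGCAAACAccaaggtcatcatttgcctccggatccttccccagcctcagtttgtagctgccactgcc
Apoh: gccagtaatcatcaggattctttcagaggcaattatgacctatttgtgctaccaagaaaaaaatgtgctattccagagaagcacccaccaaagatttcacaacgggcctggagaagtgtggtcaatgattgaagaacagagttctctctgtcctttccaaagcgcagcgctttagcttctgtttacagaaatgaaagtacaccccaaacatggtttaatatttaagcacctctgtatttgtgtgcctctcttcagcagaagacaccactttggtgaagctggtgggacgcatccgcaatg

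Counted from the start, Fga had the HNF1 half-site at -43 and the C/EBP motif at -135, Apoa1 had the FOXA motif at -88 and again at -75, Serpina1b had FOXA at -58 and the HNF1 half-site at -26, and Ambp had FOXA at -16. Of 32 plasma protein genes whose groups did not overlap, 25 had a promoter sequence. The HNF1 half-site was in 10 of the 25 and in 8.24% of the windows of all 27025 genes, and FOXA was in 9 of the 25 and in 5.76% of all windows. Both counts hold Serpina1a to Serpina1e, 5 near-identical copies of 1 gene. The C/EBP motif was in 2 (Fga and Itih2; 3.37% of all), the HNF4 letters CAAAGTC in 1 (Ahsg; 5% of all) and the GATA motif of blood cells, AGATAAG, in 2 (Itih4 and Serpinf2; 3.5% of all). A match describes the letters in this window and is not a binding site shown by these data.

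Of 18 carrier proteins and members of the inter-alpha-trypsin inhibitor family, 13 were higher (9020 of all 19055 genes), 9 did not overlap (0.451% of all genes) and 3 were called (0.0892% of all genes). Ambp, which encodes alpha-1-microglobulin and the light chain bikunin, read 6.25, 4.96 and 5.96 in the Ddc WT hearts, 4.98 and 5.04 in the Ddc MATΔ hearts and 4.74 in the Ddc PATΔ heart without Afp signal. With signal it read 9.99 and 9.76 in the Ddc MATΔ, 11.42, 10.35 and 11.22 in the Ddc PATΔ and 12.52 in the Ddc ΔΔ heart. The groups lay more than 3 units apart, and Ambp shared with Spink1 the smallest adjusted p of all probes, 0.000898, with a difference of 5.46 ± 0.38 (SE). Itih2, a heavy chain that binds bikunin, lay at 4.92 to 5.94 (median 5.22) without and 7.44 to 10.44 (median 8.74) with signal, a difference of 3.23 (adjusted p = 0.0070). Itih4 followed with 2.23 (adjusted p = 0.0319), and Itih3 was called at 1 of its probes, ILMN_2862623, with 2.70 (adjusted p = 0.0051), but not at its brighter one (2.88, adjusted p = 0.141). Neither gene had overlapping groups.

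Ttr, the carrier of thyroxine and retinol-binding protein, was present in the hearts without Afp signal as well. It read 7.84, 7.94 and 7.69 in the Ddc WT, 7.22 and 10.30 in the Ddc MATΔ and 6.27 in the Ddc PATΔ hearts without signal, and 11.57, 11.32, 12.63, 12.11, 11.84 and 13.16 in those with it. The groups did not overlap, with Ddc MATΔ replicate 2 the highest of those without signal, and the difference of 4.07 had an adjusted p of 0.175. Ahsg, the fetal serum protein fetuin-A, ran from 8.11 to 9.83 without and from 10.24 to 11.79 with signal (difference 2.14, adjusted p = 0.149). Trf, the plasma iron carrier transferrin, overlapped, at 9.14 to 10.21 without and 9.52 to 10.86 with signal. Serpina6, the corticosteroid carrier, read at most 4.92 without signal and 5.73 to 10.23 with it, its widest range being among the hearts with signal.

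Some of the best known hepatocyte genes gave no reading on these arrays. The only probe for albumin, Alb, lay between 4.78 and 5.32 on all 12 arrays, near the lowest values, in hearts with and without Afp signal alike. Fgb, the beta chain of fibrinogen, lay between 4.65 and 5.05, although Fga and Fgg, which encode the other chains of the same protein, separated the groups. Fabp1, the liver fatty acid binding protein, lay between 4.69 and 5.01. Whether these probes detect their transcripts was not tested. Of 80 measured genes in the 5 plasma protein lists, 17 lay near the lowest values on every array.

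The apolipoproteins were split between genes that followed Afp and genes that did not, with 9 of 14 higher, against 9020 of all 19055 genes, and 5 called, against 0.0892% of all genes. Apoa1, the main protein of high density lipoprotein, read 5.0, 5.63, 5.75, 5.16, 5.19 and 5.12 without signal and 8.92 and 8.10 in Ddc MATΔ, 10.63, 9.55 and 10.58 in Ddc PATΔ and 12.19 in the Ddc ΔΔ heart. All hearts without signal read near the lowest values and the groups did not overlap, with a difference of 4.10 ± 0.41 (SE; adjusted p = 0.0051). Apoh, beta-2-glycoprotein 1, lay at 4.81 to 5.28 without and 6.98 to 9.07 with signal (2.48, adjusted p = 0.0021). Apoa2, the second protein of high density lipoprotein, was called with 3.66 (adjusted p = 0.0317), yet its groups overlapped, since Ddc WT replicate 3 read 8.12 and Ddc MATΔ replicate 4, with signal, 7.95. Apof and Apoc4, which ride on lipoprotein particles, were called with 2.50 and 1.77. Apom, a carrier of sphingosine-1-phosphate, was called at the probe ILMN_2769418 (4.27, adjusted p = 0.0011) and had a smaller difference of 0.93 (adjusted p = 0.121) at its brighter probe. Apob, the backbone of low density lipoprotein, had a difference of 0.54 with overlapping groups, and Apoc2, the activator of lipoprotein lipase, one of -0.70 (adjusted p = 0.192).

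All 11 measured protease inhibitors of plasma were higher within genotypes, 8 of them without overlap (0.451% of all genes). At their brightest probes 2 were called (0.0892% of all genes). Serpina1b, an alpha-1-antitrypsin, read 4.86, 5.05, 6.03, 4.99, 4.94 and 4.92 without signal and 9.07, 8.25, 10.87, 9.88, 10.76 and 11.92 with signal, in the order Ddc MATΔ, Ddc PATΔ and Ddc ΔΔ. The highest heart without signal was Ddc WT replicate 3, still more than 2 units below the lowest heart with it, and the difference was 4.51 ± 0.44 (SE; adjusted p = 0.0051). Serpina1d followed with 3.56 (adjusted p = 0.0362), while Serpina1a, Serpina1c and Serpina1e had 1.53, 1.55 and 1.88 without a call at their brightest probes. A dimmer probe of Serpina1a, ILMN_1225699, was called with 2.61 (adjusted p = 0.0123) and did not overlap. Since these copies are nearly identical, how far a probe for 1 of them also reads the others is uncertain. Serpinf2, alpha-2-antiplasmin, lay at 4.85 to 5.03 without and 5.78 to 10.75 with signal at its brightest probe, which was not called. Its probe ILMN_3001824 was called with 1.58 (adjusted p = 0.0137) and did not overlap. Serping1, the C1 inhibitor, which many tissues make, was among those that overlapped, at 10.18 to 10.66 against 10.31 to 10.78, a difference of 0.24.

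Of 19 coagulation genes, 15 were higher, 9 did not overlap and 3 were called, against 0.451% and 0.0892% of all genes. Fga, the alpha chain of fibrinogen, read 5.11, 5.09, 5.41, 4.79, 4.83 and 5.05 without signal and 8.45, 7.73, 9.97, 9.81, 9.67 and 11.04 with signal. Both of its probes were called, with differences of 3.92 (adjusted p = 0.000979) and 3.45 (adjusted p = 0.0027). Kng1, the source of bradykinin, had the largest difference among the genes named by their brightest probe, 5.48 ± 0.63 (SE; adjusted p = 0.0137). It read 8.89 in Ddc WT replicate 1, far above the 5.20 to 6.18 of the other hearts without signal, and 10.45 to 12.55 with signal, so the groups still did not overlap. Hgfac, a serine protease that activates hepatocyte growth factor, was called with 1.44 (adjusted p = 0.0497), close to the threshold. Fgg (2.14) and prothrombin, F2 (1.33), as well as F10, F11, F13b and the anticoagulant Proc, separated the groups without a call.

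The complement genes followed less than the other plasma protein lists: 12 of 18 were higher (9020 of all 19055 genes) and 0 were called (0.0892% of all genes). The groups of Cfb alone, complement factor B, did not overlap (4.97 to 5.46 against 5.77 to 7.72). That is 5.56% of the list, against 0.451% of all genes. Vtn, vitronectin, had the largest difference in the list (1.68, adjusted p = 0.105), with Ddc PATΔ replicate 3 at 6.87 against 6.64 in Ddc MATΔ replicate 4. Masp1, a protease of the lectin pathway that was read at 11.30 to 12.01 without signal, had a difference of 0.69 with overlapping groups.

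**Figure D1:**
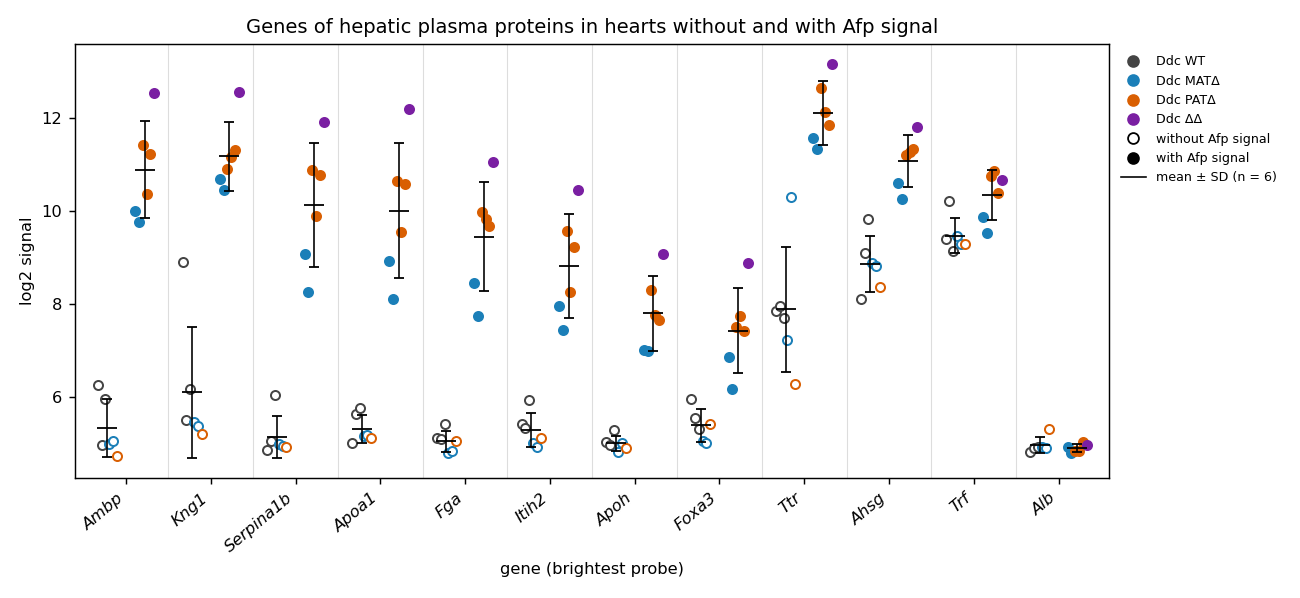
Log2 signal of 12 hepatic genes (x axis, brightest probe of each) in the 12 hearts, with open circles for hearts without and filled circles for hearts with Afp signal, colours for genotype and bars for mean ± SD (n = 6). Ambp lay at 4.74 to 6.25 without and 9.76 to 12.52 with signal, whereas the groups of Trf overlapped and Alb stayed between 4.78 and 5.32 in every heart.

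Over the 5 plasma protein lists together, 60 of 80 genes were higher within genotypes, the median difference was 0.58 and 13 were called. Over all genes, 0.0892% were called. At an unadjusted p of 0.05, 45 of the 80 were higher (56.25%, against 5.62% of all genes) and 2 lower (2.5%, against 6.1%). The groups did not overlap, with the hearts with signal above, for 32 of the 80 (40%, against 0.451% of all genes), and for 0 in the other direction (0.268% of all genes). The mean level of the 80 genes ran from 5.78 to 5.92 in the hearts without and from 6.48 to 8.01 in those with signal. When Ddc PATΔ replicate 3 is left out, here and below, the Ddc MATΔ hearts alone set the difference. In that fit 64 of 80 were higher with a median of 0.48, and 31 passed the unadjusted p. The same 64 and 0.48 are given below for the Ddc MATΔ hearts and are no separate result. The lists were drawn up with earlier results on these hearts known, so these shares describe the lists and do not test them.

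Genes for the inner work of the hepatocyte formed further lists. Of 46 metabolic enzymes, 22 lay near the lowest values on every array, 30 were higher with a median of 0.08, and 0 were called. The 4 that did not overlap (8.70%, against 0.451% of all genes) were Mat1a, which makes S-adenosylmethionine (5.61 to 6.30 against 6.77 to 8.11, difference 1.36), the glutathione transferase Gsta3 (5.91 to 7.51 against 7.74 to 9.65, difference 1.99), Gstp3 of the same family (0.63) and Slc27a2, which activates very long chain fatty acids (1.35). Their adjusted p-values lay between 0.214 and 0.307. Of 14 transporters and receptors 11 were higher, with a median of 0.13 and groups that overlapped in each.

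Foxa3, a forkhead transcription factor of liver and gut, was the 1 gene called among 16 hepatic transcription factors (0.0892% of all genes were called). It read 5.95, 5.55, 5.30, 5.06, 5.01 and 5.42 without signal and 6.85, 6.16, 7.50, 7.73, 7.42 and 8.87 with signal, which did not overlap (difference 1.75 ± 0.21 SE, adjusted p = 0.0199). Foxa2 lay near the lowest values throughout, at 4.74 to 5.79. Hnf4a, the master nuclear receptor of hepatocytes, overlapped at 6.07 to 7.24 without and 6.50 to 7.82 with signal (0.24, adjusted p = 0.796). The median of the list was 0.05.

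Growth genes that the fetal liver shares with the heart gave no separation. Igf2, the fetal growth factor, lay at 15.01 to 15.31 and Dlk1, a Notch-like ligand of fetal tissues, at 14.03 to 14.95 over all hearts. Peg3, an imprinted zinc finger gene, tended the other way, at 12.03 to 12.78 without and 11.58 to 12.08 with signal (-0.79, adjusted p = 0.214). Of 15 genes of liver sinusoid and stellate cells 4 were higher (median -0.02), and of 11 genes of visceral endoderm and proximal tubule 6 were higher (median 0.10), with 0 past the unadjusted p upward and 2 downward, Slc13a4 and Sox17. The sinusoid median is close to that of all genes, -0.01. The visceral endoderm median was -0.19 in the Ddc MATΔ hearts (4 of 11 higher) and 0.13 in the Ddc PATΔ hearts, where a single heart lacked signal. Without the genotype term it was -0.085, and the share past the unadjusted p downward was 18.2%, against 6.1% of all genes.

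Other tissues near the heart were measured through their own lists, whose medians in the fit lay near that of all genes. The medians were -0.07 for lung epithelium, 0.05 for thymus and lymphocytes, -0.06 for skeletal muscle, -0.02 for cartilage, and 0.05 for neurons and neural crest. Within genotypes the cartilage median was -0.24 in the Ddc MATΔ and 0.16 in the Ddc PATΔ hearts, and that of skeletal muscle -0.22 and 0.019. Those of lung, thymus and neurons lay between -0.03 and 0.13 in both. The surfactant gene Sftpc lay between 4.96 and 6.85 and Myod1, the muscle determination gene, between 4.70 and 5.28. Over 88 genes of other tissues 43 were higher, 4 of them past the unadjusted p (4.55%, against 5.62% of all genes). The share of tissue other than heart in each sample was not tested.

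**Figure D2:**
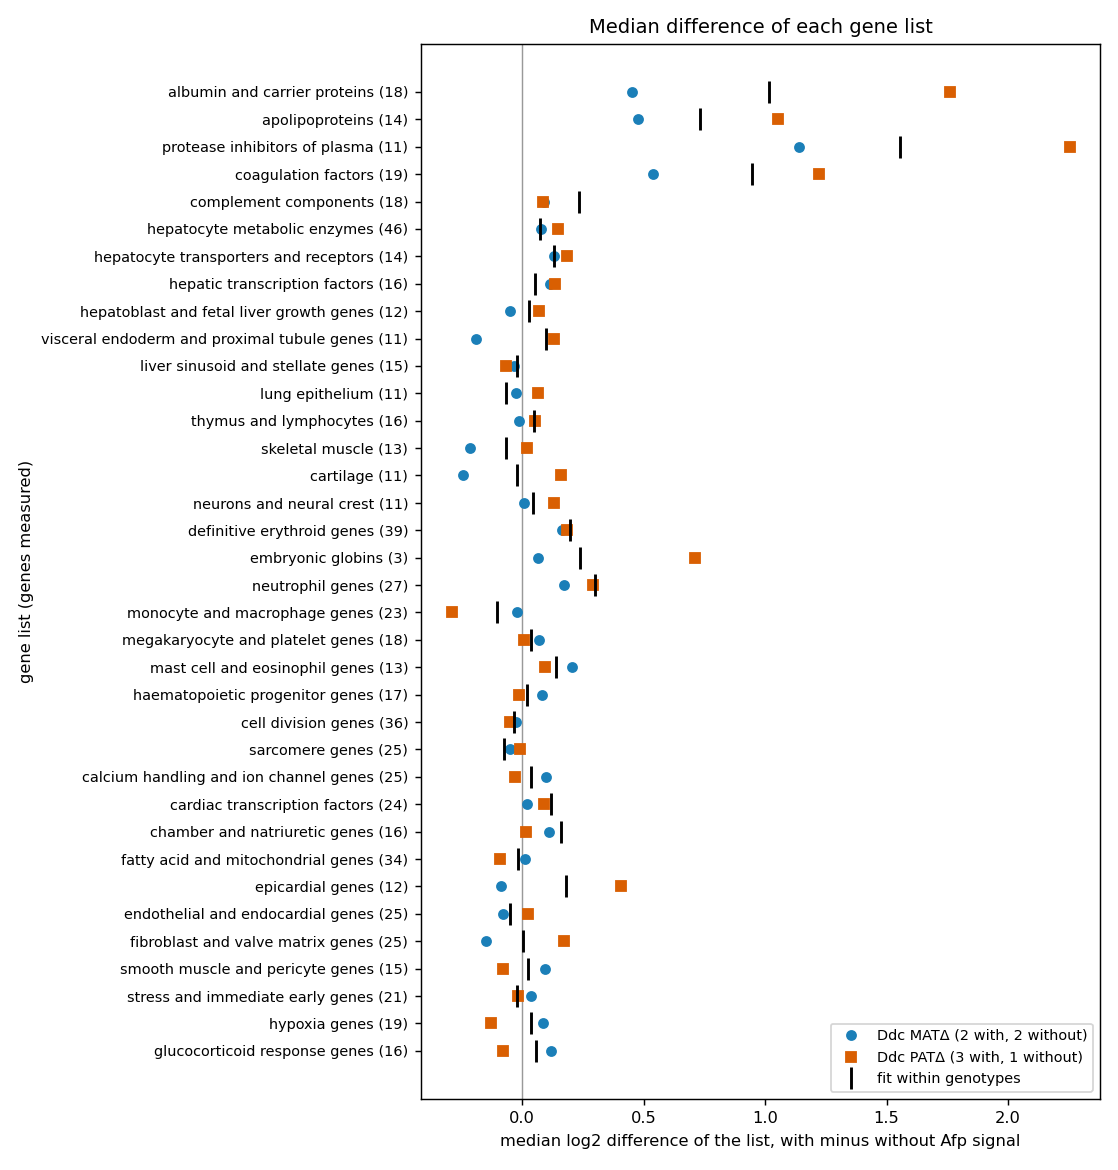
Median log2 difference of each gene list (x axis, with minus without Afp signal; genes measured in parentheses) within the Ddc MATΔ hearts (circles), within the Ddc PATΔ hearts (squares) and in the fit over both (bars). The plasma protein lists other than complement lie between 0.73 and 1.55 in the fit, and the other lists between -0.10 and 0.30.

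Of 39 definitive erythroid genes 0 were called, and 2, Klf1 and Nfe2, had groups that did not overlap (0.451% of all genes). Klf1, the erythroid Krüppel-like factor that switches on the adult globin genes, read 6.82, 7.30 and 6.27 in the Ddc WT, 6.58 and 5.99 in the Ddc MATΔ and 6.72 in the Ddc PATΔ hearts without signal. It read 7.77 and 7.42 in the Ddc MATΔ, 8.62, 8.07 and 8.07 in the Ddc PATΔ and 9.82 in the Ddc ΔΔ heart with signal. The groups did not overlap, Ddc WT replicate 2 and Ddc MATΔ replicate 4 lying nearest to each other, and the difference of 1.40 ± 0.25 (SE) had an adjusted p of 0.153. Nfe2, a subunit of the factor that binds globin enhancers, likewise did not overlap (6.77 to 7.86 against 8.06 to 9.97, difference 1.15, adjusted p = 0.318). Gfi1b, a repressor needed in red cell and platelet precursors, and Ermap, an erythroblast membrane protein, read up to 8.32 and 8.35 in the Ddc ΔΔ heart, but both lay near the lowest values in Ddc MATΔ replicate 4 with signal (5.09 and 5.20) and so overlapped.

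Alas2, the first enzyme of erythroid heme synthesis, ran from 11.38 to 14.04 without and from 12.35 to 13.97 with signal, and the alpha globin gene Hba-a1 from 15.41 to 15.53 over all hearts, near the top of the scale. Slc4a1, the band 3 anion exchanger of the red cell membrane, overlapped too (0.81, adjusted p = 0.603). The embryonic globins Hbb-y, Hba-x and Hbb-bh1, products of the yolk sac lineage, had differences of 0.07, 0.24 and 0.60 with wide overlap, and each was highest in the Ddc ΔΔ heart. Of 39 definitive erythroid genes 27 were higher with a median of 0.20, 0 were called and 5 passed the unadjusted p (12.8%, against 5.62% of all genes). That count rose to 9 when Ddc WT replicate 1 was left out and came down to 2 in the absence of Ddc PATΔ replicate 3.

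Of 27 neutrophil genes 0 were called by their brightest probe (0.0892% of all genes). The groups of Prtn3 alone did not overlap (3.70% of the list, against 0.451% of all genes). Mpo, the myeloperoxidase of promyelocyte granules, read 5.22, 7.66, 5.51, 5.74, 6.72 and 4.98 without signal and 8.50, 6.95, 9.33, 9.20, 8.65 and 10.51 with signal at its brightest probe. Ddc WT replicate 2 lay above Ddc MATΔ replicate 4, so the groups overlapped (2.60, adjusted p = 0.327), while at the probe ILMN_2600421 they did not (5.11 to 5.90 against 6.70 to 10.26) and the difference of 2.45 was called (adjusted p = 0.0497). Its remaining probes lay near the lowest values throughout. Prtn3, proteinase 3 of the same granules, did not overlap (4.82 to 5.31 against 5.43 to 7.35, difference 0.66, adjusted p = 0.258), and Elane, neutrophil elastase, had 0.48.

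S100a9, a calcium-binding protein of mature neutrophils, ran from 6.24 to 9.33 without and 8.74 to 11.05 with signal, highest in Ddc PATΔ replicate 2. The granule genes Camp and Ltf were highest in that heart as well, at 8.87 and 9.10. Of 27 neutrophil genes 23 were higher, with a median of 0.30 and 6 past the unadjusted p (22.2%, against 5.62%), but the median was 0.10 without Ddc PATΔ replicate 2, where 21 of 27 were higher. The mean level of the list was 5.56 to 6.39 without and 6.07 to 7.23 with signal.

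Of 23 monocyte and macrophage genes 5 were higher (median -0.10), and C1qb, a complement subunit of tissue macrophages, lay at 9.07 to 10.24 against 9.22 to 10.70. In this list 11 of 23 were higher (median -0.020) without Ddc PATΔ replicate 3, and 3 of 23 (median -0.23) without Ddc PATΔ replicate 2. With genotype left out the median was 0.0008. Tpsab1, a mast cell tryptase, did not overlap (5.12 to 5.37 against 5.49 to 7.65, adjusted p = 0.415). It alone did so in its list (7.69%, against 0.451% of all genes), and 12 of 13 mast cell and eosinophil genes were higher with a median of 0.14. Platelet and progenitor genes had medians of 0.04 and 0.02. Over all 174 blood genes 19 were higher at the unadjusted p (10.9%, against 5.62%), 4 lower, and 0 called. The cell division genes, placed with them because the fetal liver divides fast, had a median of -0.04, with Pcna, the replication clamp, at 0.61 and Cenpf, a centromere protein, at -0.42.

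**Figure D3:**
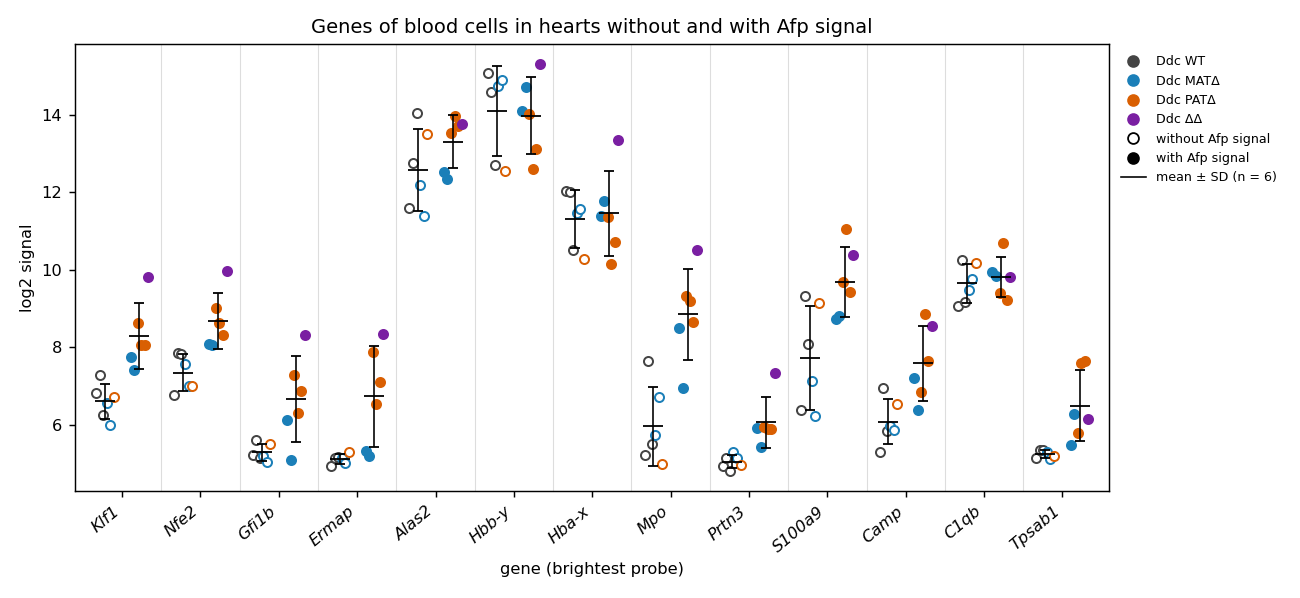
Log2 signal of 13 genes of blood cells (x axis, brightest probe of each) in hearts without (open) and with (filled) Afp signal, coloured by genotype, with mean ± SD (n = 6). Klf1, Nfe2, Prtn3 and Tpsab1 did not overlap between the groups, whereas Alas2, the embryonic globins Hbb-y and Hba-x, and C1qb did.

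The genes that make up heart muscle did not separate the hearts. Actc1, cardiac actin, lay at 14.85 to 15.21 without and 14.88 to 15.07 with signal (-0.10 ± 0.10 SE). Myh6 and Myh7, the alpha and beta cardiac myosins, had differences of -0.20 and -0.09, and Nppa had -0.06. Of 25 sarcomere genes 10 were higher (median -0.07), of 25 calcium handling and ion channel genes 15 (median 0.04), and of 34 fatty acid and mitochondrial genes 14 (median -0.02). Over 193 cardiac genes 101 were higher with a median of 0.01, 0 were called, 0 had groups without overlap, and 15 were higher (7.77%, against 5.62% of all genes) and 5 lower at the unadjusted p.

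Among cardiac transcription factors 16 of 24 were higher (median 0.12; 12 of 24 and 0.020 without Ddc PATΔ replicate 3, and a median of 0.064 without Ddc PATΔ replicate 2), and those with the smallest p were Irx4, Hand2, Hey2 and Gata4. Hand2, a basic helix-loop-helix factor of the right ventricle that neural crest also uses, read 9.79, 8.69, 8.93, 8.67, 8.63 and 9.09 without signal and 9.83, 10.02, 9.79, 9.73, 8.99 and 9.93 with signal. The high heart without signal was Ddc WT replicate 1 and the low heart with signal Ddc PATΔ replicate 4, the hearts in which the first principal component also went against their group. Its difference was 0.90 (adjusted p = 0.384), and 0.42 with that component in the fit. Irx4, a ventricular homeobox gene, had 0.49 (adjusted p = 0.329), and Nkx2-5, an early cardiac homeobox gene, 0.44 (adjusted p = 0.486) at 11.77 to 12.66 against 12.04 to 12.56. The part of that component in these differences was not tested.

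Acadl, the long-chain acyl-CoA dehydrogenase of fatty acid oxidation, had the smallest p of the genes in the cardiac lists, with an adjusted p of 0.206. It lay at 12.60 to 12.73 in all hearts with signal and at 11.89 to 12.75 without, where Ddc MATΔ replicates 1 and 2 made the low end, and its difference was 0.52. Its other probes had 0.57 and -0.23. Ppargc1a, the coactivator of mitochondrial genes, had -0.40 (adjusted p = 0.272), at 11.42 to 12.18 without and 11.12 to 11.86 with signal.

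The collagens of fibroblasts and valves, Col3a1 and Col1a1, had 0.52 and 0.79 (adjusted p = 0.396 and 0.458), again with Ddc WT replicate 1 high and Ddc PATΔ replicate 4 low in their groups, and the difference of Col3a1 was 0.25 with the first component in the fit. The vascular genes Cdh5, the endothelial cadherin, and Flt1, a receptor of vascular endothelial growth factor, had 0.42 and -0.34. The lists of fibroblast, smooth muscle and endothelial genes had medians of 0.01, 0.03 and -0.05, and the fibroblast median was -0.15 without Ddc PATΔ replicate 3. The epicardial list had 0.18 in the fit, -0.07 when genotype was left out and -0.085 without Ddc PATΔ replicate 3, and 0 of its 12 genes passed the unadjusted p. Genes of stress, of hypoxia and of the glucocorticoid response had medians of -0.02, 0.04 and 0.06.

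**Figure D4:**
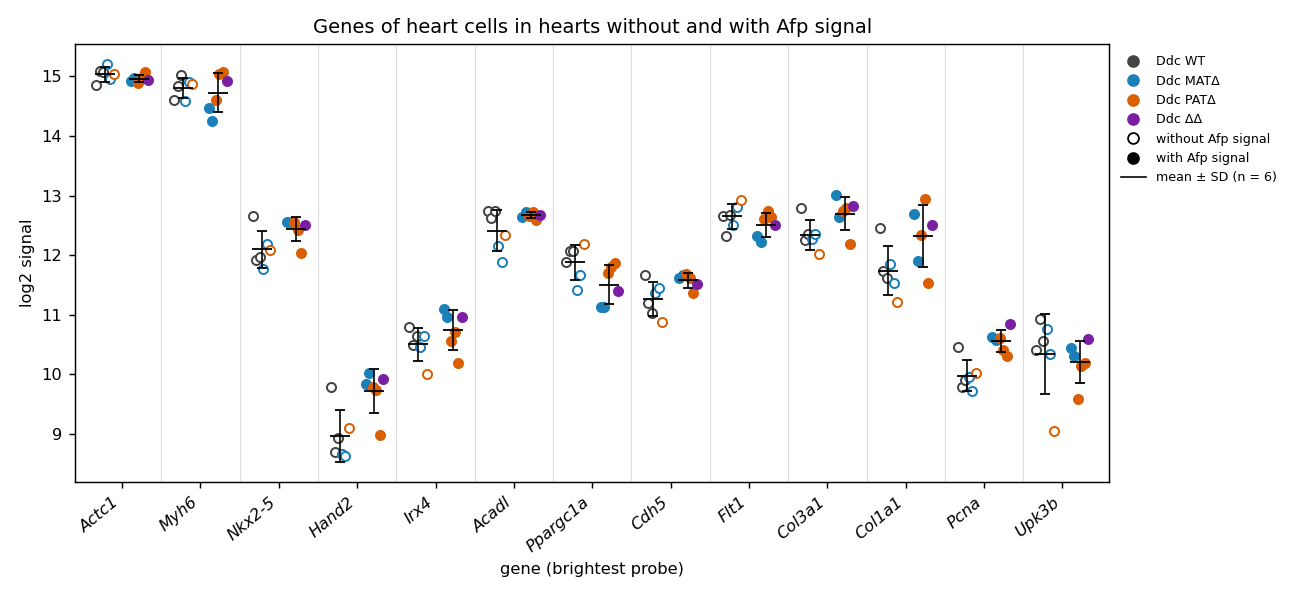
Log2 signal of 13 genes of heart cells (x axis, brightest probe of each) in hearts without (open) and with (filled) Afp signal, coloured by genotype, with mean ± SD (n = 6). All 13 overlapped between the groups, with Actc1 between 14.85 and 15.21 in every heart and Hand2 at 8.63 to 9.79 without and 8.99 to 10.02 with signal.

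Outside the lists, Spink1 and Prrt4 were among the 10 genes with the largest increase, and some further genes were chosen after their values were seen. Spink1, a trypsin inhibitor of pancreas and gut, lay at 5.01 to 5.63 without and 8.18 to 10.72 with signal, a difference of 3.87 ± 0.27 (SE) with the same adjusted p as Ambp, 0.000898. Among those chosen afterwards, Crp, C-reactive protein, which the liver secretes, lay at 4.86 to 5.65 against 7.09 to 9.46 (2.35, adjusted p = 0.0074). Prodh2, an enzyme of hydroxyproline breakdown, and Tspan32, a tetraspanin of blood cells, did not overlap either (0.90 and 1.36) and were not called. Prrt4 was called but did not follow Afp over all genotypes. It read 9.22, 8.18 and 8.19 in the Ddc WT hearts, as high as in the hearts with signal (8.06 to 9.28), and 4.93, 5.12 and 4.89 in the Ddc MATΔ and Ddc PATΔ hearts without signal, so its difference within genotypes (3.63, adjusted p = 0.0021) came down to 1.89 with genotype left out. Ctdp1 and Tmem177 were each called at a probe other than their brightest (0.97 and 0.83), while the brightest probes gave -0.02 and -0.15.

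Of the genes lower with Afp signal, 0 were called, and the 10 with the largest decrease past an unadjusted p of 0.01 had differences between -2.37 and -0.89. Pam, which amidates peptide hormones and is rich in atrial cardiomyocytes, led with 10.29 to 11.57 without and 7.0 to 11.03 with signal (-2.37, adjusted p = 0.267), low in both Ddc MATΔ hearts with signal (7.0 and 7.99) and in the Ddc ΔΔ heart (7.86). Another Pam probe had 0.15. Mlxipl, the carbohydrate response factor ChREBP, had -1.06, the zinc finger gene Zfp52 -1.02 and Adgrf5, an endothelial adhesion receptor, -0.90. The others were Cars, Mbd3l2, Gm5886, Nr2e1, Wdcp and Fryl, each with overlapping groups. Among all 19055 genes 86 had every heart with signal above every heart without and 51 the reverse, and the 86 became 271 without Ddc WT replicate 1. Of the 86, 38 were in hepatic lists and 44 in none of the lists. Ndufb10, a respiratory chain gene in no list, was picked from the 51 after its values were seen. It lay at 12.34 to 13.01 without and 11.92 to 12.27 with signal (-0.81, adjusted p = 0.192 by limma).

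Within each genotype, the plasma protein genes were higher with Afp signal in both. They were higher in 64 of 80 cases in the Ddc MATΔ hearts (median 0.48) and in 60 of 80 in the Ddc PATΔ hearts (median 0.86), the latter against a single heart without signal. For 55 of the 80 (68.8%) both differences were positive, as for 27.7% of all genes. Among definitive erythroid genes the share was 46.2% (18 of 39) and among neutrophil genes 66.7% (18 of 27). In the fit with a term for a difference between the genotypes, 0 probes were called by limma (smallest adjusted p = 1.00) and 1922 had an unadjusted p under 0.05, and of the 80 plasma genes 18 were larger in Ddc PATΔ and 2 in Ddc MATΔ at that level.

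Within the hearts with Afp signal, the level of the 32 plasma genes without overlap was ordered by heart. Their median level was 6.72 and 7.05 in Ddc MATΔ replicates 4 and 3, 7.71, 8.20 and 8.34 in Ddc PATΔ replicates 2, 4 and 1, and 9.32 in the Ddc ΔΔ heart. The Ddc ΔΔ heart was highest for 29 of the 32 genes and Ddc MATΔ replicate 4 lowest for 26. All Ddc PATΔ hearts lay above both Ddc MATΔ hearts for 26 of the 32, by a median of 1.09, and the Ddc ΔΔ heart lay above the Ddc PATΔ mean by a median of 1.29. With 2 and 3 hearts and a single Ddc ΔΔ heart no test of this order was made, and the genes were chosen for being high in these hearts. The blood lists differed among themselves in this order. The Ddc ΔΔ heart lay above the mean of the Ddc PATΔ hearts with signal for 29 of 39 definitive erythroid genes (median 0.25), Klf1 and Nfe2 among them. It did so for 9313 of all 19055 genes (median -0.005). The counts were 14 of 18 platelet, 13 of 17 progenitor, 15 of 23 macrophage and 3 of 3 embryonic globin genes, but 11 of 27 neutrophil (median -0.13) and 6 of 13 mast cell and eosinophil genes. The mean of the Ddc PATΔ hearts with signal lay above that of the Ddc MATΔ hearts with signal by a median of 0.29 for erythroid and 0.41 for neutrophil genes. The median for the embryonic globins was -0.98, and that of all genes 0.0007.

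**Figure D5:**
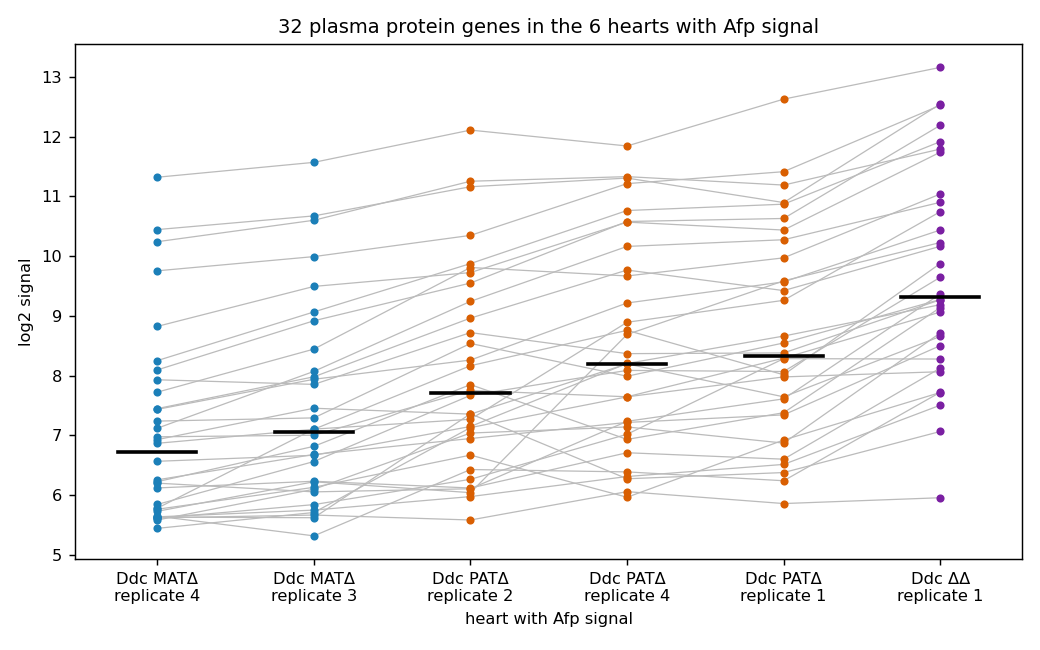
Log2 signal (y axis) of the 32 plasma protein genes without overlap in the 6 hearts with Afp signal (x axis), with a line joining each gene across hearts and a black bar for the median of a heart. The medians run from 6.72 in Ddc MATΔ replicate 4 to 9.32 in the Ddc ΔΔ heart.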

How the data were processed

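RNA of 12 embryonic hearts was hybridized to Illumina mouse WG-6 arrays, 1 per heart, and mapped to genotype from the labels. Affymetrix chips are named in the methods, but the probe identifiers belong to Illumina arrays. The deposited values are log2 signals that the authors corrected for background with neqc and normalized between arrays with limma. GenomeStudio and limma are named in the submitters' processing notes, without a stated probe filter. A scanner table of 24 columns was not used, since its column names match no heart in the labels. The hearts were snap frozen, and RNA was amplified with a biotin label.

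Each probe was fitted with lmFit and eBayes of limma 3.58.1 in R 4.3.3, on the 4 genotypes and the Afp group (7 residual degrees of freedom), and calls were made at a Benjamini-Hochberg adjusted p of 0.05 over all 45266 probes other than Afp. The fit was tested on simulated data. Precision is limited by the number of arrays. Of the probes, 34875 had 1 gene symbol in the platform annotation, 18 several and 10374 none. Gene lists used the probe with the highest mean and were described by counts and medians only. The members and the lists were chosen with earlier results of these data known. The genes named are the 10 largest increases and decreases, in each list up to 4 genes of smallest p, and in hepatic lists up to 4 of highest mean with signal, as far as space allowed, with others said to be chosen afterwards. Alternatives were other covariates (none, ablated against expressing, Xist, first principal component), array weights, a trended variance, 100 added to the signals, a filter at a mean of 7, the replicate number as a block and each heart left out. List counts without single hearts or within a genotype, the term for a difference between genotypes and the bound of 6 for genes near the lowest values were chosen after seeing the data. Slides could not be fitted, since their hearts are not given.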

Additional observations from a re-analysis of the deposited data

Results flagged for a closer look

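Among 40 groups of hearts examined for the most separated named genes, 4 held a heart whose distance from its nearest neighbour was large against the range of its group, where chance would give about 1 in 20. Kng1 in Ddc WT replicate 1, without Afp signal, read 8.89, and the nearest other heart without signal 6.18. Serpina1b in Ddc WT replicate 3, also without signal, read 6.03, with the nearest heart at 5.05. Fryl, a gene related to the furry cell shape regulator of flies, read 10.16 in Ddc PATΔ replicate 4 among the hearts with signal (nearest 9.62) and 9.31 in Ddc WT replicate 1 among those without (nearest 10.28). Of the genes examined, 0 had every Ddc MATΔ heart moving one way and every Ddc PATΔ heart the other.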

How the results depend on the processing

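The count of probes higher with Afp signal, 28, became 12 with the replicate block, 12 with the first principal component as a covariate, 2 with 100 added to the linear signals and 16 with probes of a mean of 7 or more, and it ran from 7 to 36 when each heart was left out. Of the calls, 21 were shared with the 37 calls without a genotype term, 11 with the 12 calls under the first component and 7 with the 7 calls without Ddc PATΔ replicate 3. The count of lower probes, 0, became 6 without a genotype term, 1 with ablated against expressing hearts as the covariate, 5 with the Ddc MATΔ and Ddc PATΔ arrays alone, 3 with array weights and 7 with a trended and robust variance, and ran from 0 to 7 with a heart left out. The cause of these shifts was not tested, except that the Ddc MATΔ hearts alone set the difference once Ddc PATΔ replicate 3 is out. Ambp kept its call under all 22 alternatives, Fga, Spink1 and Apoh lost it under 1 each, Apof under 2, Apoa1 and Serpina1b under 3, Prrt4 under 4, Itih2 under 5, Kng1 under 9, Foxa3 under 10, Itih4 under 12, Apoa2 and Serpina1d under 13 and Hgfac under 16. The filter at a mean of 7 tested 10 of these 15 genes, and a gene that it removed was not counted as losing its call. Its mean was taken over all hearts, so the hearts with signal could lift a gene past it. Fga (ILMN_2624363) passed with a mean of 5.05 without and 9.44 with signal. A call kept under this filter therefore cannot tell whether the call depends on values near background. Leaving out the Ddc ΔΔ heart, alone in its genotype, could not change a difference within genotypes. The difference of Rrm2 turned from -0.23 to 0.016 without a genotype term. The median of the epicardial list turned from 0.18 to -0.068 without that term and ran from -0.085 to 0.24 with a heart left out. Deviations of same-numbered hearts correlated between -0.346 and 0.537. They were not set against hearts of different numbers, so whether the replicate numbers pair the hearts was not tested. Values near background give only an upper limit for a level.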
